A study of Saccharomyces cerevisiae S288C with 6 samples.

Results

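The 8 genes described here, GSC2, FKS1, KRE6, SKN1, CHS1, CHS2, CHS3 and GFA1, encode the enzymes that build the glucan and chitin of the budding yeast cell wall, and those that act just before them. They were chosen by name, and all 8 were found among the 5449 genes of Saccharomyces cerevisiae that had a probe set with a single gene in the platform annotation. Transcript levels had been measured in 3 cultures of strain S288C treated with plakortide F acid (PFA), an antifungal endoperoxide from marine sponges, at its IC50 of 0.62 ug/ml, and in 3 cultures given the solvent at 0.25% DMSO. All cultures grew in MOPS-buffered synthetic dextrose medium at neutral pH, received PFA or solvent once the optical density reached 0.2, and were harvested when it reached 0.5. The labels call the 3 samples of a treatment biological replicates, and each was read on 1 Affymetrix array. Cultures were thus matched for density and not for time, a single haploid strain and a single dose were examined, and the DMSO content of the PFA cultures is not given in the sources used here.

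The yeast wall is a mesh of 1,3-linked beta-glucan to which shorter 1,6-linked beta-glucan, mannoproteins and a small amount of chitin are attached. FKS1 and GSC2 (also called FKS2) encode alternative catalytic subunits of the 1,3-beta-glucan synthase, an enzyme of the plasma membrane activated by the GTPase Rho1 and inhibited by echinocandin drugs. FKS1 is the main form in growing cells, whereas GSC2 is known to be induced by calcium through calcineurin, by cell wall damage and on poor carbon sources. Chitin comes from 3 synthases, Chs1, Chs2 and Chs3, with distinct roles in the division cycle, and all draw on the UDP-N-acetylglucosamine pathway, which Gfa1 begins.

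Signals are the authors' scaled intensities on a linear scale, with a common trimmed mean of 999.5 to 999.6 on all 6 arrays. Log2 signals of arrays from the same group correlated at 0.991 to 0.994, those of arrays from different groups at 0.923 to 0.929, and no array stood apart. The ratio of 3′ to 5′ signal for actin, a measure of RNA quality, was 1.19 to 1.25 on PFA arrays and 1.20 to 1.28 on DMSO arrays. The alpha mating type markers STE3, MF(ALPHA)1, SAG1 and MF(ALPHA)2 had mean signals of 2377, 13023, 701 and 97.0 in PFA, against 7207, 17847, 12079 and 10528 in DMSO. The 6 a-cell markers had means of 16.1 to 148 in PFA, against 76.4 to 597 in DMSO. Of these, STE6 alone was higher in PFA, at 148 against 103 in DMSO. Each of the 8 genes had a probe set of its own, on no array dimmer than 27.2 times the background level of 20.01. That single level was set by the fission yeast probe sets over all 6 arrays.

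Of the 8 genes, 4 rose in PFA, 2 fell and the remaining 2 missed the threshold (limma, adjusted p under 0.05 over 5356 genes). The test called 62.0% of all genes, 30.3% higher and 31.8% lower, so 6 calls among 8 genes is close to the background and says nothing particular about wall synthesis. PFA and DMSO signals were fully separated for 6 of the 8, and for 66.6% of all genes. The median log2 change was 0.20 over the 8 genes and -0.02 over all genes tested. Single members lay far from that centre. GSC2 rose more than all but 55 genes and CHS1 more than all but 127, while 318 genes fell more than CHS2. FKS1 and SKN1 stood out less, as 1135 genes fell more than FKS1 and 1213 rose more than SKN1. In bulk RNA, fewer cells that express a gene and less of its RNA per cell cannot be told apart.

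**Figure D1:**
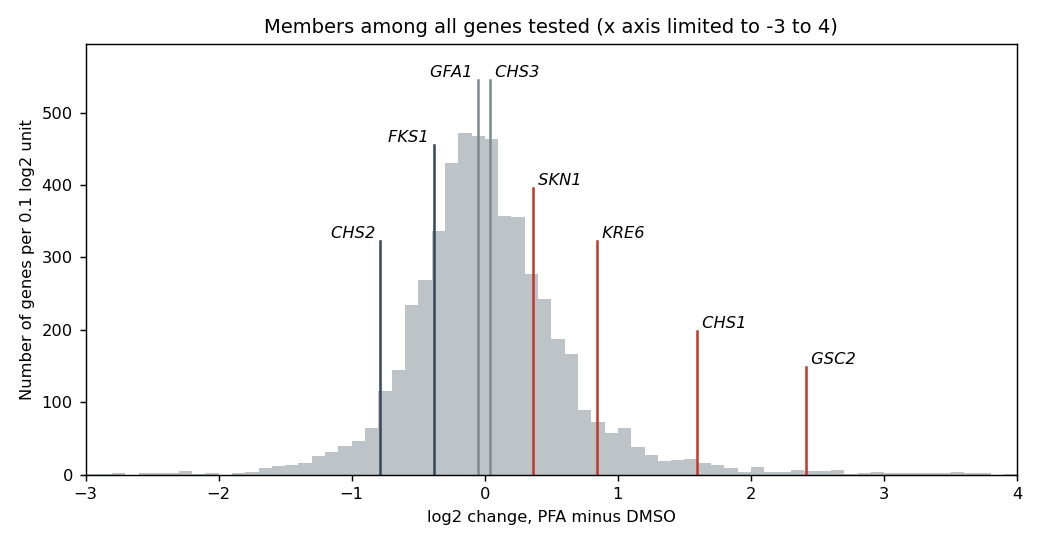
Histogram of the log2 change, PFA minus DMSO, over the 5356 genes tested, with the x axis limited to -3 to 4 and the 8 members marked by vertical lines whose height has no meaning (red higher, dark blue lower, grey not called). GSC2 at 2.42 and CHS1 at 1.59 lie in the upper tail, and CHS3 and GFA1 lie at the centre.

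The 1,3-glucan synthase genes changed in opposite directions. GSC2 (YGR032W) had signals of 13208, 13882 and 15108 in the PFA cultures, against 2708, 2682 and 2509.9 in the DMSO cultures. Every PFA value was thus far above every DMSO value, and the means were 14066 ± 963 in PFA and 2634 ± 108 in DMSO (SD, n = 3 each). The rise was 5.34-fold, a log2 change of 2.42 ± 0.07 (SE, limma adjusted p = 1.89e-11). FKS1 (YLR342W) had signals of 6888, 6868 and 7257 in PFA, against 9413, 9355 and 8593 in DMSO. The groups did not overlap here either, but in the other direction, and FKS1 was 1.30-fold lower in PFA (log2 change -0.38 ± 0.06, SE, adjusted p = 9.43e-05).

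Levels of different probe sets cannot be set against each other, but the change of their ratio on the same array can be tested. The log2 ratio of GSC2 to FKS1 signal was 0.94, 1.01 and 1.06 in the PFA cultures and -1.80, -1.80 and -1.78 in the DMSO cultures. It shifted by 2.80 ± 0.07 (SE, 95% interval 2.64 to 2.95, limma adjusted p = 9.11e-15 over all genes set against FKS1), or 6.94-fold toward GSC2. The third gene of the family, FKS3, which has been tied to spore wall assembly, was dim in both groups. Its signals were 43.6, 48.7 and 74.3 in PFA and 57.4, 66.0 and 39.0 in DMSO, which overlapped, and its log2 change of 0.03 had a wide interval of -0.64 to 0.70 (adjusted p = 0.938).

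**Figure D2:**
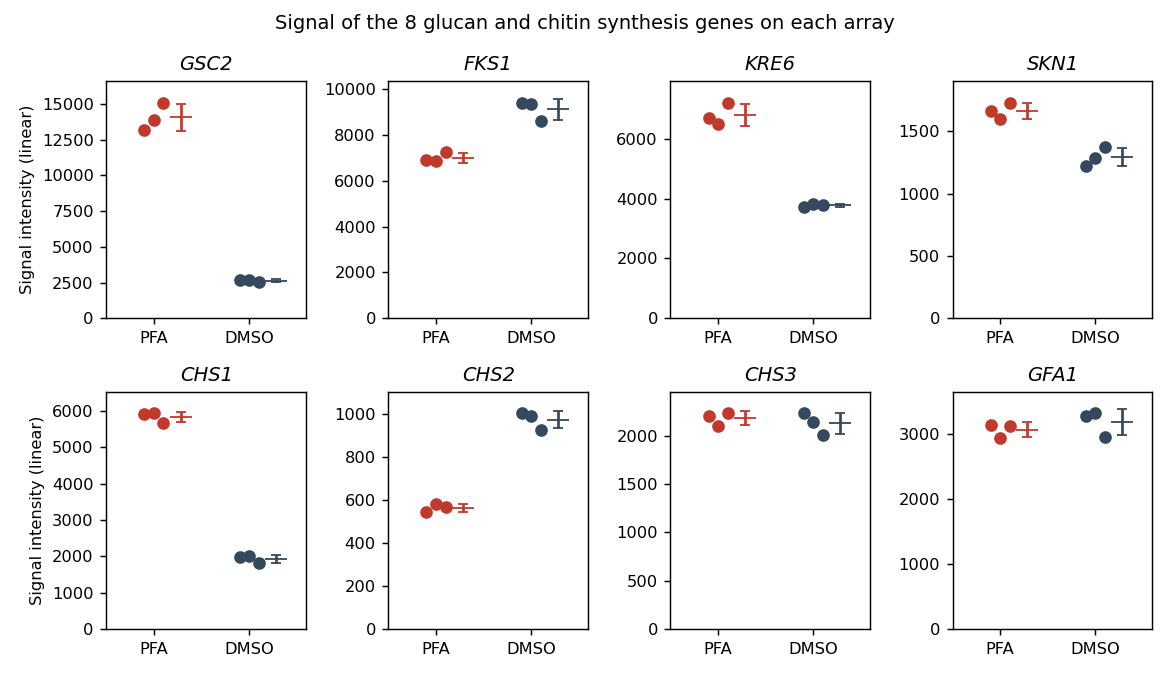
Signal intensity of the 8 genes on a linear axis from 0, each point 1 array, PFA in red left of DMSO in dark blue, with mean and SD as bars beside the points. PFA and DMSO points separate for GSC2, FKS1, KRE6, SKN1, CHS1 and CHS2 and overlap for CHS3 and GFA1.

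Transcripts of FKS3 and of 7 genes for Rho1, related GTPases and regulators of the synthase formed a list of 8, of which 3 rose, 1 fell and 4 missed the threshold (median log2 change 0.05). RHO1, the regulatory subunit itself, rose 1.14-fold, with a mean signal of 10858 in PFA against 9507 in DMSO (adjusted p = 0.00570). The genes of the exchange factors that activate Rho1, ROM2 and ROM1, rose 1.48-fold and 1.42-fold, whereas TUS1, a further exchange factor gene, had mean signals of 796 in PFA and 763 in DMSO (log2 change 0.07, adjusted p = 0.536). LRG1, which encodes a GTPase-activating protein that turns Rho1 off at the synthase, was 1.71-fold lower, with signals of 305, 307 and 358 in PFA against 618, 441 and 617 in DMSO (adjusted p = 0.000277). SMI1, another gene of the list, was not called (log2 change -0.23, adjusted p = 0.0794). It was called lower with the replicate block and after median centring (limma adjusted p = 0.0183 and 0.0313). The same held without PFA replicate 3 and without DMSO replicate 1 (limma adjusted p = 0.0393 and 0.0147). The 4 calls among 8 genes are a smaller share than the 62.0% called among all genes.

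KRE6 and SKN1 encode related type II membrane proteins needed for 1,6-beta-glucan, and both rose. KRE6 (YPR159W), the more important of the pair for wall 1,6-glucan, had signals of 6685, 6499 and 7206 in PFA, against 3725, 3831 and 3784 in DMSO. The groups were well apart, with means of 6797 ± 367 in PFA and 3780 ± 53.2 in DMSO (SD, n = 3 each), a 1.80-fold rise (log2 0.85 ± 0.06, SE, limma adjusted p = 1.97e-07). SKN1 (YGR143W) had signals of 1666, 1602 and 1731 in PFA, against 1225, 1286 and 1373 in DMSO. Its groups also did not overlap, but the rise was smaller, 1.29-fold (log2 0.36 ± 0.08, SE, adjusted p = 0.00140).

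The smaller response of SKN1 held as a difference between the genes. The log2 ratio of SKN1 to KRE6 was -2.00, -2.02 and -2.06 in the PFA cultures and -1.60, -1.57 and -1.46 in the DMSO cultures. Its shift was -0.48 ± 0.08 (SE, 95% interval -0.66 to -0.30, limma adjusted p = 0.000106). KRE6 and SKN1 thus moved the same way by unequal amounts, whereas GSC2 and FKS1 moved in opposite directions.

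Of 10 other genes with a part in 1,6-glucan, 5 rose, 1 fell and 4 missed the threshold, with a median log2 change of 0.24. Their share of calls is close to the 62.0% called among all genes. KRE5, whose product acts in the endoplasmic reticulum, led with signals of 1946, 1990 and 2214 in PFA against 1165, 1049 and 980.3 in DMSO, 1.93-fold higher (adjusted p = 1.66e-06). ROT1, another gene of the endoplasmic reticulum, rose 1.45-fold and KRE1, which encodes a cell surface protein of glucan assembly, 1.38-fold. The gene that fell was KNH1, with signals of 470, 497 and 522 in PFA against 868, 862 and 941 in DMSO, 1.79-fold lower (adjusted p = 2.77e-06). KNH1 is a homolog of KRE9, for KRE9 the log2 change was 0.10 (limma adjusted p = 0.148).

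The 3 chitin synthase genes each behaved differently. CHS1 (YNL192W), which encodes the repair enzyme that replaces chitin lost when mother and daughter separate, had signals of 5903, 5934 and 5672 in PFA, against 1985, 2010.01 and 1807 in DMSO. All PFA values lay above all DMSO values, and the rise was 3.02-fold (log2 1.59 ± 0.07, SE, limma adjusted p = 1.50e-09). CHS2 (YBR038W), which encodes the synthase of the primary septum, had signals of 544, 581 and 570.2 in PFA, against 1005, 989.8 and 929 in DMSO. It was 1.72-fold lower in PFA with no overlap between the groups (log2 -0.79 ± 0.08, SE, adjusted p = 3.27e-06).

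CHS3 (YBR023C) encodes the enzyme that makes most of the chitin of the wall and the ring at the bud neck, and is the synthase known to be used when the wall is damaged. Its signals were 2208, 2097 and 2232 in PFA and 2231, 2141 and 2011 in DMSO, so the groups overlapped. The log2 change was 0.04 ± 0.07 (SE, adjusted p = 0.696), and its 95% interval of -0.13 to 0.20 allows a small change in either direction, and the value was -0.03 after centring each array on its median.

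Set against each other on the same arrays, all 3 chitin synthase genes differed in their response. The log2 ratio of CHS1 to CHS2 was 3.44, 3.35 and 3.31 in PFA and 0.98, 1.02 and 0.96 in DMSO, a shift of 2.38 ± 0.08 (SE, 95% interval 2.20 to 2.56, limma adjusted p = 7.20e-15), or 5.21-fold toward CHS1. The ratio of CHS3 to CHS1 shifted by -1.56 ± 0.09 (SE, 95% interval -1.74 to -1.37, limma adjusted p = 5.80e-11). The ratio of CHS3 to CHS2 shifted by 0.82 ± 0.09 (SE, 95% interval 0.63 to 1.01, limma adjusted p = 1.03e-07).

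**Figure D3:**
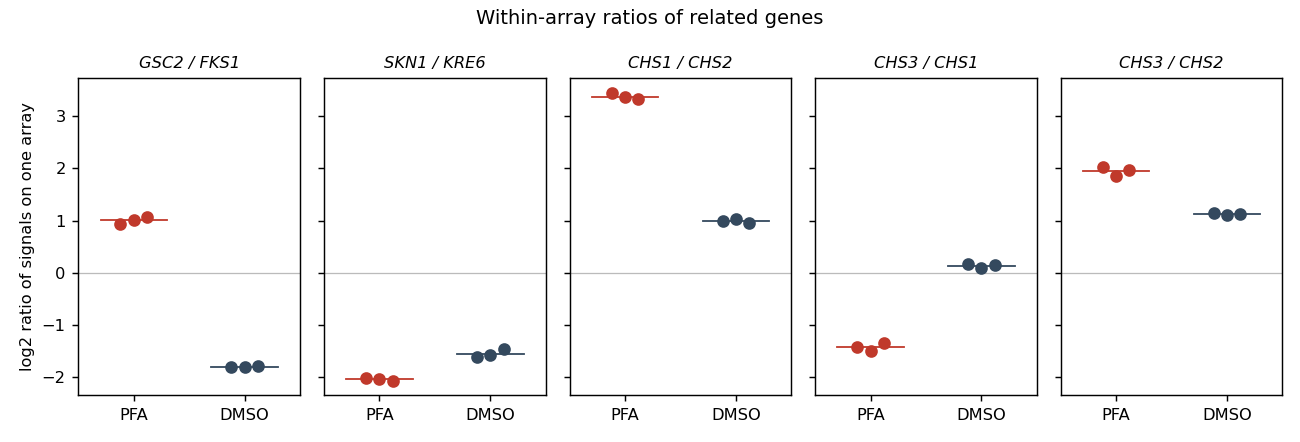
The log2 ratio of the signals of related genes on the same array, each point 1 array and each line a group mean, PFA in red left of DMSO in dark blue. The height of a ratio depends on the probes, so only its shift between groups can be read, which is largest for GSC2 over FKS1 (2.80) and smallest in size for SKN1 over KRE6 (-0.48).

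CHS1 is known to be induced by mating pheromone, and CHS2 transcripts are known to peak at mitosis, so a single gene of each programme is given beside them. STE12, the transcription factor of the pheromone response, was 1.91-fold lower in PFA, with signals of 873, 816 and 949 against 1655, 1733 and 1636 in DMSO (limma adjusted p = 9.38e-07). The part of the pheromone response in the level of CHS1 was not tested. SWI5, a factor gene that is likewise transcribed around mitosis, had signals of 358, 339 and 326 in PFA, against 731, 580 and 650.2 in DMSO, 1.91-fold lower (limma adjusted p = 6.48e-06). Of all genes tested, 31.8% were called lower. The part of the division cycle in the fall of CHS2 was not tested.

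Chs3 activity is set largely by transport to the plasma membrane and by activators, and some of the genes for these steps changed. Of 11 such genes, 4 rose, 2 fell and 5 missed the threshold (median log2 change 0.04). That is no larger a share of calls than the 62.0% among all genes. CHS5, among the 5 that missed, was called lower after median centring (limma adjusted p = 0.0475). SHC1, an activator of Chs3 known for its role in sporulation, had signals of 273, 246 and 285 in PFA, against 71.5, 80.4 and 64.7 in DMSO, 3.72-fold higher (limma adjusted p = 3.90e-07). Its vegetative counterpart SKT5 (also called CHS4) had signals of 976, 972 and 1009.6 in PFA, against 1284, 1292 and 1316 in DMSO, 1.32-fold lower (limma adjusted p = 0.000482).

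CHS7, which encodes a chaperone for the exit of Chs3 from the endoplasmic reticulum, was 1.48-fold lower, with signals of 1790, 1556 and 1519 in PFA, against 2392, 2412 and 2394 in DMSO. RCR1, a membrane protein gene whose overexpression lowers chitin content, rose 2.94-fold, with signals of 3317, 3233 and 3259 in PFA, against 1243, 1027 and 1078 in DMSO. BUD7 and BCH1, paralogous cargo adaptor genes of the exomer coat that carries Chs3 from the Golgi, rose 1.66-fold and 1.27-fold. The other adaptor pair, CHS6 and BCH2, had log2 changes of 0.15 and 0.04, neither past the test, and the palmitoyltransferase gene PFA4, which shares only its name with the compound, one of 0.01.

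GFA1 (YKL104C) encodes glutamine-fructose-6-phosphate amidotransferase, the first and rate-limiting step toward UDP-N-acetylglucosamine. Its signals were 3141, 2944 and 3127 in PFA and 3286, 3321 and 2949 in DMSO. The groups overlapped, with a log2 change of -0.05 ± 0.07 (SE, 95% interval -0.21 to 0.11, limma adjusted p = 0.563).

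The reading frames YMR084W and YMR085W, neighbours in the reference genome, together resemble GFA1 and are known to form 1 gene in related strains. Both rose by more than any of the 8 genes of wall synthesis. YMR085W had signals of 2744, 3635 and 3381 in PFA, against 301, 279 and 271 in DMSO, 11.4-fold higher (log2 3.51 ± 0.10, SE, limma adjusted p = 4.35e-11). YMR084W had signals of 1434, 1609 and 1708 in PFA, against 149, 192 and 168 in DMSO, 9.36-fold higher (log2 3.23 ± 0.11, SE, limma adjusted p = 1.42e-10). Their difference from GFA1 was not tested. Whether a functional protein is made from either frame cannot be read from these arrays.

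Of the 8 genes of precursor supply other than GFA1, these 2 frames rose, 2 genes fell and 4 missed the threshold (median log2 change -0.11). The list thus had a smaller share of calls than all genes, at 62.0%. GNA1, the acetyltransferase that follows Gfa1, was 1.29-fold lower, with signals of 1473, 1388 and 1249 in PFA, against 1894, 1741 and 1653 in DMSO (limma adjusted p = 0.00301). PGM2, the main phosphoglucomutase on the way to UDP-glucose, changed by -0.42 on the log2 scale (limma adjusted p = 0.0386), but its signals of 2231, 3574 and 3275 in PFA and 4325, 3197 and 4567 in DMSO overlapped. Without PFA replicate 1 the PGM2 change was -0.22 (adjusted p = 0.169), and without DMSO replicate 1 or 3 it was -0.37 and -0.33 (adjusted p = 0.124 and 0.158), and the call was also lost without the variance trend (adjusted p = 0.107). The next enzymes PCM1 and QRI1 and the UDP-glucose pyrophosphorylase gene UGP1 had log2 changes of -0.05, -0.19 and -0.16, none past the test, although QRI1 and UGP1 passed it as lower after median centring (limma adjusted p = 0.0268 and 0.0139). QRI1 also passed without DMSO replicate 1 (adjusted p = 0.0116), and UGP1 with the replicate block, without PFA replicate 3 and without DMSO replicate 2 (adjusted p = 0.0497, 0.0140 and 0.0302).

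Genes that remodel chitin once made were split as well, with 2 of 6 tested higher, 2 lower and 2 not past the test. All genes tested were split in much the same way, 30.3% higher and 31.8% lower. CRH1 and UTR2 encode homologous enzymes that link chitin to glucan. CRH1 had signals of 7918, 7933 and 8588 in PFA, against 2416, 2969 and 3230.3 in DMSO, 2.85-fold higher (limma adjusted p = 4.26e-08). UTR2 had signals of 4849, 4539 and 4904 in PFA, against 8862, 9332 and 9936 in DMSO, 1.97-fold lower (limma adjusted p = 5.24e-08). Their sporulation-associated relative CRR1 was dim and 1.81-fold higher, and CTS1, the chitinase gene of daughter-cell separation, was 1.48-fold lower.

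**Figure D4:**
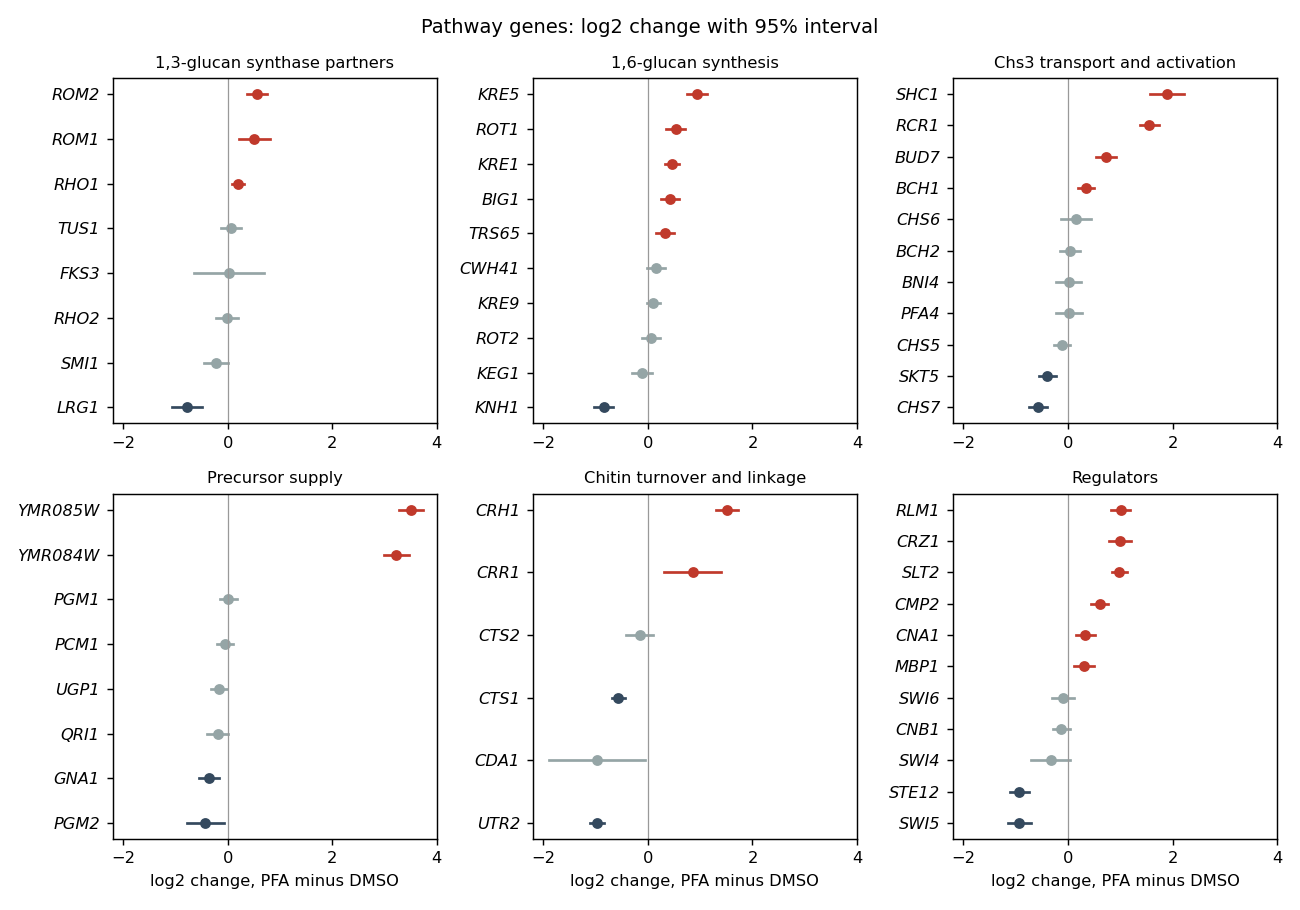
Log2 change, PFA minus DMSO, with its 95% interval for the tested genes of 6 lists around the 8 members (red higher, dark blue lower, grey not called at an adjusted p of 0.05). The 2 GFA1-like frames lie far to the right at 3.23 and 3.51, and each list holds genes on both sides of 0.

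Other related genes of these lists had changes of opposite sign in some cases and of the same sign in others. SHC1 and SKT5 had log2 changes of 1.89 and -0.40, and CRH1 and UTR2 of 1.51 and -0.98. KNH1 fell while KRE9 was not called. ROM1 and ROM2 had similar values, 0.51 and 0.57, and the catalytic calcineurin subunit genes CMP2 and CNA1 rose by 0.60 and 0.33. The regulatory subunit gene CNB1 did not rise, with a log2 change of -0.13 (limma adjusted p = 0.146). It was called lower after median centring (limma adjusted p = 0.0391). These pairs were drawn up after the values were seen, and their differences were not tested.

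**Figure D5:**
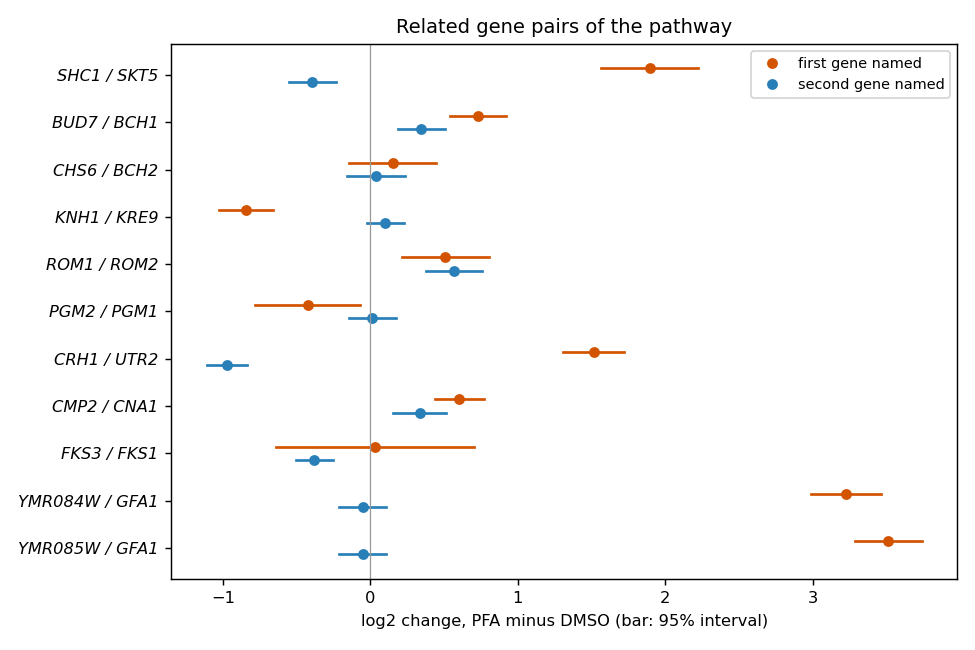
Log2 change, PFA minus DMSO, with 95% intervals for related genes, the first gene named in orange above the second in blue. Intervals lie on opposite sides of 0 for SHC1 and SKT5 and for CRH1 and UTR2, and overlap for ROM1 and ROM2 and for CHS6 and BCH2.

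Of 11 measured regulators known to act on these genes or on wall and cycle genes at large, 6 rose, 2 fell and 3 missed the threshold (median log2 change 0.30). Among all genes 30.3% were called higher and 31.8% lower, and the list as a whole was not tested. SWI4, among the 3 that missed, was called lower under quantile normalization and without the variance trend (limma adjusted p = 0.02235 and 0.0479). CRZ1, the calcineurin-dependent activator of GSC2, had signals of 735, 849.8 and 935 in PFA, against 432, 416 and 417 in DMSO, 1.98-fold higher. RLM1, the transcription factor of the cell wall integrity pathway, rose 2.01-fold and SLT2, its kinase, 1.97-fold. PFA and DMSO signals did not overlap for these 3 genes, as was so for 66.6% of all genes tested. In size each rise was below that of GSC2 and, for these arrays, RNA levels say nothing of the activity of the proteins.

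To place each member among all genes, the 2 named genes with the most similar profile over the 6 arrays were found by Euclidean distance between log2 profiles centred on their mean. With only 2 groups, this measure follows mainly the size of the change. For GSC2 they were PRB1, a vacuolar protease gene, and CAR1, the arginase gene, at distances of 0.15 and 0.15. For CHS1 they were UGA2 and CYC3 (0.14 and 0.14), for KRE6 PHO81 and SMM1 (0.06 and 0.07), and for SKN1 YLH47 and LYS1 (0.05 and 0.07). For FKS1 they were NPC2 and ECM32 (0.05 and 0.07), and for CHS2 RPF2, a ribosome assembly gene, and ALE1 (0.10 and 0.12). For CHS3 they were AFG3 and RFX1 (0.05 and 0.07), and for GFA1 ERG2 and YAR1 (0.05 and 0.08), all 4 not called. None of the 16 belonged to the pathway lists.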

How the data were processed

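The authors deposited linear signal intensities from biotin-labelled RNA, 1 for each probe set on each array. They used GCOS 1.1, per the submitters' processing notes; how probes were summarised and background was treated is not given in the sources used here. After trimming 2% of probe sets at each end, mean signals were nearly equal on all arrays, so the authors had scaled them, and no scaling was added. Of 10928 probe sets, 5498 matched 1 S. cerevisiae gene by Entrez number in the RefSeq gene table, covering 5449 genes. Where a gene had several, the brightest was used. Mean log2 signals of 1746 probe sets of the other organism on the array set the background, at their 95th percentile, and 93 genes at or below it were left out. Since every signal was positive, no pseudocount was added before taking log2.

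PFA was compared with DMSO by limma 3.58.1 under R 4.3.3 (two-sided, lmFit and trended eBayes, no replicate block), with Benjamini-Hochberg adjustment across 5356 genes and a threshold of 0.05. For a pair, the log2 signal of its second gene was subtracted from every gene on each array and the same fit run. P-values rest on the spread among 3 cultures a group, moderated by the variances of all genes, so their size depends on that moderation. Without the variance trend the limma adjusted p was 4.95e-07 for GSC2 and 4.71e-08 for its shift against FKS1. Folds are ratios of geometric means. The 6 arrays limit the precision.

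Simulated data had independent normal noise. Log2 changes of 0.585, 1 and 2 were planted in 67, 67 and 66 genes, a far smaller share than the 62.0% called here. In the per-gene PFA against DMSO comparison (5356 genes), 83.6%, 92.5% and 100% (56, 62 and 66 genes) were recovered. Of 5156 unchanged genes, 18 were called. For the difference from FKS1 (5355 genes) the shares were 85.1%, 97.0% and 100% (57, 65 and 66 genes), with 30 of 5155 unchanged genes called. In both comparisons unchanged genes made up a larger share of the calls than the 0.05 that the adjustment aims at.

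The members, lists and tests were chosen with earlier results of these data known. The naming rule took all 8 members, FKS3, the 4 largest called changes of each list, and the 2 likest genes of each member. SKT5, BCH1, CHS6, BCH2, PFA4, KRE9, PCM1, QRI1, UGP1, TUS1, SMI1, CNA1, CMP2, CNB1 and STE12 were named after their values were seen. So were CHS5, SWI4, CDA1 and CDA2. Same-numbered PFA and DMSO replicates had deviations correlated at -0.05, -0.09 and 0.16, so the numbers were not taken to pair the cultures. Plots were made in Python 3.11.15 with matplotlib 3.10.9.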

Additional observations from a re-analysis of the deposited data

How the results depend on the processing

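The direction and call of GSC2, FKS1, KRE6, SKN1, CHS1 and CHS2 were the same under quantile normalization, a replicate block, no filter, centring on the median, pseudocounts of 16 and 64, no variance trend and leaving out each array, and CHS3 and GFA1 stayed uncalled. Log2 changes over these alternatives ran from 2.35 to 2.50 for GSC2, -0.44 to -0.34 for FKS1, 0.78 to 0.88 for KRE6, 0.30 to 0.41 for SKN1, 1.53 to 1.62 for CHS1, -0.85 to -0.72 for CHS2, -0.03 to 0.07 for CHS3 and -0.12 to -0.02 for GFA1. With each array left out in turn the pair shifts ran from 2.77 to 2.83 for GSC2 and FKS1, -0.51 to -0.44 for SKN1 and KRE6, 2.35 to 2.41 for CHS1 and CHS2, -1.60 to -1.52 for CHS3 and CHS1, and 0.78 to 0.87 for CHS3 and CHS2. An exact permutation test of the pair shifts, 2.80, -0.48, 2.38, -1.56 and 0.82 in the same order, gave p = 0.1 for each, the smallest that 3 against 3 arrays allow, so it could not pass the threshold. The stricter filter left 2724 genes and called 813 higher and 1080 lower. It removed CHS2, so 1 member was lower in place of 2. Centring put the median log2 change over all genes at -0.08 and gave 1416 higher and 1982 lower. With the replicate block 1642 genes were higher and 1724 lower, and no member or pair changed its call. No member had a second probe set, so the dimmest probe set was not run.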

Other observations

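The array also carries fission yeast probe sets, and those for its chitin synthase genes chs1 and chs2 and for the alpha-glucan synthase gene ags1 show what probes without a matching transcript read here. Signals for chs1 were 7.65, 15.9 and 0.471 in PFA and 19.6, 10.5 and 6.34 in DMSO. For chs2 they were 16.5, 13.0 and 2.94 in PFA and 4.03, 3.19 and 2.67 in DMSO, and for ags1 they lay between 0.965 and 3.49. All were below the background level of 20.01.

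CDA2, a chitin deacetylase gene of the spore wall, did not pass the filter on low signals, with signals of 34.9, 6.78 and 6.06 in PFA and 21.4, 22.1 and 21.2 in DMSO. Its paralog CDA1 was dim too, at 31.3, 28.6 and 14.2 in PFA and 61.7, 43.4 and 35.5 in DMSO. The groups of CDA1 did not overlap, and its log2 change of -0.97 did not pass the test (limma adjusted p = 0.0646), but passed after centring on the median, without a filter, without the variance trend and with the replicate block (limma adjusted p = 0.0490, 0.0460, 0.0330 and 0.0494).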
